A study of Homo sapiens with 10 samples.

Results

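The regions described here are the peaks of one ChIP-seq library, H3K27me3 in control cells, that overlapped no peak of H3K9me3 (in either condition) and no peak of the input by even 1 bp. Of the 6003 H3K27me3 CT peaks, 1665 (27.7%) met this rule and 4338 were removed. The rule used peak positions of these same libraries, so the absence of H3K9me3 and input peaks in the members is a description and not a result.

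The study measured CTCF and histone marks in HEK-293T cells, a human embryonic kidney line, after changing the level of CGGBP1, a protein that binds CGG triplet repeats. The transduced cells carried a control shRNA without a target (CT), an shRNA that silences CGGBP1 (KD) or a construct that overexpresses CGGBP1 (OE), and the shRNA cells were selected with puromycin. The 3 histone marks H3K4me3, H3K9me3 and H3K27me3 were profiled in CT and KD and CTCF in CT, KD and OE, and there was 1 input library whose source cells are not named. With 1 library per mark and condition nothing can be said about variation between cultures, so no p-values are given, and differences between CT and KD are differences between libraries. Intervals beside shares are exact 95% Clopper-Pearson intervals. They cover only counting error and treat peaks as independent, although many of them share sequence. The deposited lists hold positions without heights or scores, so the number of reads behind a peak is unknown.

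H3K27me3 is the histone mark written by Polycomb repressive complex 2. In most human cells it spreads over broad domains at silent developmental genes such as the HOX clusters, where it is read by Polycomb repressive complex 1. H3K9me3 instead marks constitutive heterochromatin, including the satellite repeats around centromeres, and H3K4me3 marks the start sites of active and poised genes.

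The members were narrow, with a median width of 181 bp and a range from 150 to 1271 bp, and together covered 349807 bp. They fell into 4 classes that were set after the sequences had been seen. A total of 290 members overlapped a coding exon, 693 belonged to one family of tandem repeats with a unit of 171 bp, 347 were mostly repeated sequence of other kinds, and 335 were none of these. A base was counted as repeated when its 24-mer is present 10 times or more in hg38. Representative sequences are printed below because the classes are told apart by sequence. All are hg38, plus strand.

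The member of the largest family that shared 24-mers with most other members (335 of them) lay at chr5:49175811-49176153, and its central bases chr5:49175832-49176131 are shown. Capitals mark the 24-mer found in most members (88 of them).
family 1 (171 bp family): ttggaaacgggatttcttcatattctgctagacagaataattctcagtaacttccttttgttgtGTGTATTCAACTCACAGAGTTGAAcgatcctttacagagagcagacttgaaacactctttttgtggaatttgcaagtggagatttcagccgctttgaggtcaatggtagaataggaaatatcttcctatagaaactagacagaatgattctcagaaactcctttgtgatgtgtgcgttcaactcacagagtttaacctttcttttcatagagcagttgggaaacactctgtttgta

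Family 2 had 40 members, with chr21:8231725-8232322 sharing 24-mers with 17 others, and the bases chr21:8231874-8232173 are shown. Capitals mark the 24-mer held by 9 members.
family 2: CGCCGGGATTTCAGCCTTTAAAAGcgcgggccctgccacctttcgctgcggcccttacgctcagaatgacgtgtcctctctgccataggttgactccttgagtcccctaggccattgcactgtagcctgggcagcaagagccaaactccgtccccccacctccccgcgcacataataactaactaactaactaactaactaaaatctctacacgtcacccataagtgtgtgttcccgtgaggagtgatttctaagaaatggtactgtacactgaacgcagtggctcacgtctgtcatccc

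Family 5 had 18 members and is shown by chr2:90400983-90401199. Capitals mark each GGAAT, which fills 65 of its 217 bases.
family 5: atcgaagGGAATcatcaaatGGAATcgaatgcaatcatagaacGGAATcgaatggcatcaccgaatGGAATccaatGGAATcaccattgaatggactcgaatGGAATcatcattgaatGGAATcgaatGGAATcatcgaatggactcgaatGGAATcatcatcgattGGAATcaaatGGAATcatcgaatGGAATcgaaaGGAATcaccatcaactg

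The coding exon class is shown by 2 members that hold a whole exon with its intron edges, one in ATM at chr11:108267152-108267390 and one in BRCA2 at chr13:32324970-32325265. Capitals mark the coding exons, chr11:108267171-108267342 (172 bases) and chr13:32325076-32325184 (109 bases).
ATM exon: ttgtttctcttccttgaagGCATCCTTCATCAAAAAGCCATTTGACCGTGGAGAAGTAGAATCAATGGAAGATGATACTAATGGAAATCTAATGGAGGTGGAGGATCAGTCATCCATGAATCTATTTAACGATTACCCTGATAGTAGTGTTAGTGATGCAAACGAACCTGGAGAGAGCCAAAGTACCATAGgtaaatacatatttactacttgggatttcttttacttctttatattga
BRCA2 exon: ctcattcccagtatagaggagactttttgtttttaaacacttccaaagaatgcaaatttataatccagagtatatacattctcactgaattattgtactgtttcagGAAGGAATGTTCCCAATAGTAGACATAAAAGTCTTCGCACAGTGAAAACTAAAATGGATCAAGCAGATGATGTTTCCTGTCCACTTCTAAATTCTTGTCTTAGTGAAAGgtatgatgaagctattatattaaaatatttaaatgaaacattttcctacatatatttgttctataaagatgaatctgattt

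The label of the library was first checked against genes that Polycomb holds in many cell types. Among 132 such genes, a list that includes the HOX, PAX, SOX and GATA families, 4 (3.03%) had a member within 10 kb of a start site, while 1.33% of all 20020 protein-coding genes did. Within 1 kb the counts were 3 (2.27%) and 0.564% of all genes. The removed peaks added none, since the full H3K27me3 CT list reached the same 4 genes, against 2.33% of all genes. The H3K27me3 KD list reached 0 of the 132, against 1.32% of all genes, and the input 0. H3K9me3 CT peaks lay within 10 kb for 7 of the 132 (5.3%), against 13% of all genes. H3K4me3 CT peaks lay within 10 kb of a start site for 128 of the 132 (97%), against 83.6% of all genes. The share at Polycomb target genes was thus above that of all genes in the members and, by less, in the full H3K27me3 CT list. It was below that of all genes in H3K27me3 KD and H3K9me3 CT. The contrast rests on few genes, 4 in H3K27me3 CT and 0 in H3K27me3 KD, and 128 of the 132 had no H3K27me3 CT peak nearby. The regions are therefore called members or by their class below. The cell type fitted its label in the H3K4me3 CT list, which had a peak within 1 kb of a start site for 8 of 8 markers of HEK-293T (VIM, KRT8 and others) and for 2 of 8 markers of other cells. The antibodies given for H3K9me3 and H3K27me3 are swapped between the labels and the study's methods, and each list is named here by the mark in its title.

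The 4 genes were SHH, a morphogen of the neural tube and limb, POU4F1, a transcription factor of sensory neurons, LHX3, which directs pituitary and motor neuron development, and SOX21, a factor of neural progenitors. At LHX3 a 199 bp member (chr9:136201477-136201675) had its centre 98 bp from a start site, and it overlapped none of the H3K4me3, CTCF or H3K27me3 KD peaks. At SHH there were 2 members, with centres 489 bp and 950 bp from the start site, and both overlapped H3K4me3 peaks in CT and in KD. The POU4F1 member was 748 bp from the start site and the SOX21 member 4217 bp, and both again overlapped H3K4me3 in CT and KD. Of 29 genes for Polycomb subunits and their opponents, 1 (3.45%) had a member within 10 kb, compared with 1.33% of all protein-coding genes. This was BMI1, a subunit of Polycomb repressive complex 1. There a 174 bp member lay 133 bp from a start site and overlapped H3K4me3 in both conditions. None of these members overlapped an H3K27me3 KD peak or a CTCF peak. All of them were unrepeated, and such overlaps were infrequent among the 509 unrepeated members. There the shares were 3.34% for H3K27me3 KD and 6.29%, 10.4% and 11.8% for CTCF in CT, KD and OE. None of 16 housekeeping genes had a member within 10 kb, which says little because only 1.33% of all protein-coding genes had one.

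The members lay in 2 extremes of repeat content. No base was repeated in 509 of them (30.6%, interval 28.4 to 32.8), and at least 0.5 of the bases were repeated in 1053 (63.2%, 60.9 to 65.6), with only 103 in between. Of the 4338 removed peaks, 46 (1.06%, 0.777 to 1.41) had no repeated base. Over all bases, 57.4% of member sequence was repeated, compared with 94.2% of removed sequence and 23.8% of the known bases of hg38. The plot of repeated sequence shows that the unrepeated end is made of the coding exon and other classes and the repeated end almost wholly of the 171 bp family and other repeats.

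**Figure D1:**
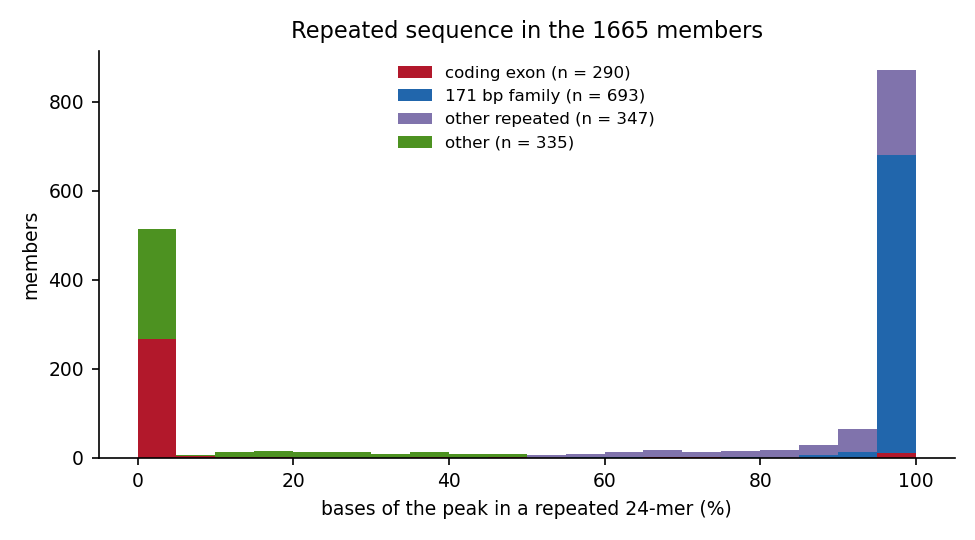
Number of members (vertical axis) by the percentage of their bases whose 24-mer is present 10 times or more in hg38 (horizontal axis), stacked by class. The 509 members without a repeated base and the 662 that are wholly repeated stand at the ends, with few between.

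Gene context followed the same split. On the annotated chromosomes, 583 of 1549 members (37.6%, 35.2 to 40.1) overlapped a gene of any type, and 966 (62.4%) were intergenic. Genes cover 60.5% of the known bases there. The removed peaks overlapped a gene in 22% of cases (20.7 to 23.3). Coding exons held 17.5% of the member bases, although they make up 1.22% of the annotated bases. A further 10 members lay in untranslated regions, 72 in exons of other transcripts and 211 in introns. The centres of 311 members (20.1%, 18.1 to 22.2) were within 2 kb of a start site of any transcript, compared with 3.85% of the removed peaks and 12.8% of the known bases. The remaining 116 members lay on 49 sequences without gene annotation (unplaced, random and alternate sequences).

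The 290 members on coding exons (17.4% of all members) were concentrated in few genes. In the full H3K27me3 CT list 5.41% of the peaks overlapped a coding exon, 325 in all, so that 290 of those 325 were members. They fell in 66 genes, and 235 of them (81%) in 21 genes with at least 4 members each. The 21 genes have 563 merged coding exons, of which 250 (44.4%, 40.3 to 48.6) carried a member. Of the 211367 coding exons of all other protein-coding genes, 52 (0.0246%) did. These genes were picked by their member counts, so the contrast is a description.

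The 21 genes were grouped by what they are known for after their values had been seen, and no enrichment was tested. A group of 10 is known from the response to DNA damage. ATM, the kinase that is activated by DNA double-strand breaks, had 45 members on 50 of its 62 coding exons. BRCA2, which acts in homologous recombination, had 19 members on 17 of 31 exons, and BRCA1, a ubiquitin ligase of the same repair pathway, had 14 members on 12 of 27. BARD1, the partner of BRCA1, carried members on 7 of 13 exons, and PALB2, which links BRCA1 to BRCA2, on 9 of 14. RAD50 and NBN, subunits of the complex that senses broken ends, had members on 18 of 29 and 14 of 20 exons. BRIP1, a helicase that binds BRCA1, had them on 15 of 29, RAD51C, another recombination protein, on 9 of 13 and CHEK2, a checkpoint kinase, on 10 of 19. Together these 10 genes carried 158 members on 161 of 257 coding exons (62.6%, 56.4 to 68.6).

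A comparable density was seen in 4 genes outside DNA repair. CDH1, which encodes E-cadherin, had a member on 14 of 16 coding exons and TGFB1, a growth factor, on 6 of 7. CASP8, an initiator caspase, had 8 of 11, and ERBB2, a receptor tyrosine kinase, 12 of 29. The 4 genes carried 34 members on 40 of 63 exons (63.5%, 50.4 to 75.3). A further 4 genes are known for muscle disease and had sparser members: DYSF (dysferlin, a membrane repair protein) on 10 of 61 exons, COL6A3 (a collagen chain) on 6 of 44, LAMA2 (a laminin chain) on 5 of 67 and CAPN3 (a muscle protease) on 5 of 30, together 12.9% (8.58 to 18.3).

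Other genes of the same pathways were also looked up, chosen after the values above were known. Every gene with at least 4 members on coding exons was already among the 21, so low counts here were set in advance. Over the coding exons of all protein-coding genes outside the 21, 0.0246% carried a member. None of 330 coding exons in 9 further genes of the DNA damage response carried a member. These were MRE11, ATR, CHEK1, RAD51B, FANCA, FANCD2, XRCC5, PRKDC and TP53BP1. In 7 further muscle genes 3 of 719 exons did, with 1 each in DMD, COL6A1 and COL6A2 and 0 of 364 in TTN, the gene for titin.

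The members on these exons followed the exons themselves. Of the 235, 142 held at least 1 whole coding exon and 21 lay inside one, and 225 had no repeated base. Where a member held a single whole exon, it reached past the exon edge by a median of 45 bp (quartiles 23 and 68, over 258 edges). The median length of an exon with a member was 152 bp and of an exon without one 99 bp. The widest members of the whole set were of this kind. Among the 8 widest on chromosomes 1 to 22 and X, 7 lay on coding exons: 2 in BRCA1 with 1271 and 1251 bp, 1 in BARD1 with 1081 bp, 1 in BRCA2 with 885 bp, 2 in PALB2 with 868 and 864 bp and 1 in BRIP1 with 812 bp. Each of those 7 overlapped an H3K4me3 CT peak and no peak of the other 5 lists.

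The same exons were compared across all lists. H3K4me3 CT peaks lay on 272 of the 563 exons (48.3%, 44.1 to 52.5) and H3K4me3 KD peaks on 26 (4.62%, 3.04 to 6.69). In the coding exons of all other genes the 2 lists were close to each other, with 6.69% in CT and 7.01% in KD. H3K27me3 KD peaks lay on 0 of the 563 (interval 0 to 0.653%), and input peaks on 0. H3K9me3 CT had 12 exons and H3K9me3 KD 7, all of them in the 4 muscle genes. CTCF peaks lay on 3 exons in CT, 4 in KD and 3 in OE. For ATM alone, the counts over its 62 exons were 50 for members, 46 for H3K4me3 CT and 0 for each of the other 8 lists. The rule used the H3K9me3 CT, H3K9me3 KD and input lists, and the genes were picked by their member counts. Low counts in those lists are therefore partly set by the choice. The heat map of coding exons shows the 2 CT lists filled and the other lists nearly empty for the 18 genes drawn.

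**Figure D2:**
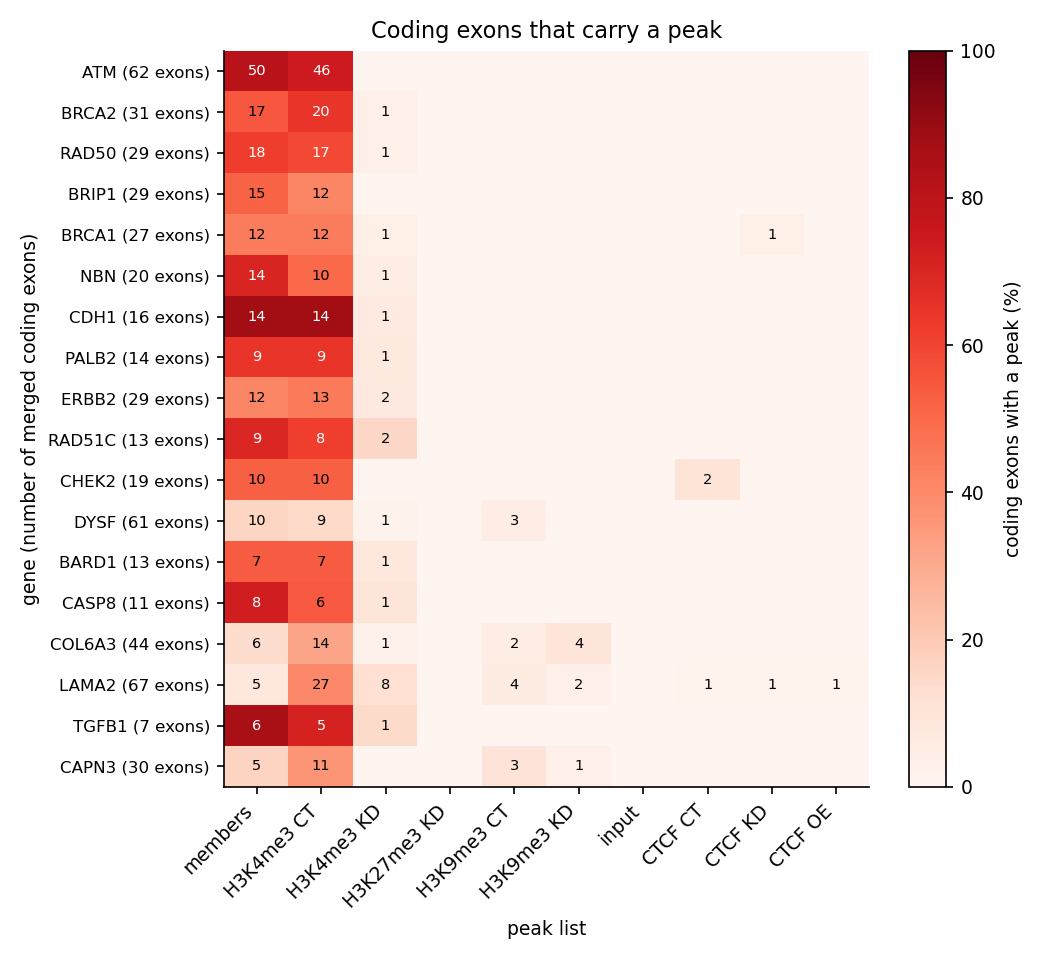
18 of the 21 genes with at least 4 members on coding exons (rows) against peak lists (columns). Colour gives the percentage of the gene's merged coding exons that carry a peak and the digits give their number, with no digit for 0. Members and H3K4me3 CT fill the first 2 columns (227 and 250 of the 522 exons shown), while H3K27me3 KD and input have none. The H3K9me3 and input lists were used by the rule that set the members, so their low counts are partly set by it.

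The 2 lists often met on the same exon. A total of 202 exons carried both a member and an H3K4me3 CT peak, 48 a member only, 70 an H3K4me3 CT peak only and 243 neither. The peaks also coincided in extent. For the 189 of 235 members with an H3K4me3 CT peak, the centres were a median of 20 bp apart and the shared bases made up a median of 81% of the joint span. For 116 unrepeated members outside coding exons with an H3K4me3 CT peak, the centres were a median of 167 bp apart and the shared part was 23.4%. Both CT libraries thus carried short peaks at the same exons that the KD libraries of the same marks mostly lacked. Genes of these groups are also among those sequenced exon by exon in gene panels for hereditary cancer and muscle disease. Whether the exon peaks come from immunoprecipitated chromatin or from other DNA in the CT libraries cannot be told from positions alone and was not tested, so they are not read here as H3K27me3 or H3K4me3 at these genes. The overall CT and KD overlap shares below are therefore also given without the coding exon members.

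The 55 coding exon members in other genes were a mixed group. Of these, 12 were mostly repeated, 39 overlapped H3K4me3 CT, 24 overlapped H3K4me3 KD and 11 overlapped H3K27me3 KD. In the 21 genes the counts were 189, 7 and 0 of 235.

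The 171 bp family, 693 members (41.6%, 39.2 to 44), was the largest group. Its members share 24-mers with each other directly or through others. When the sequence around each centre was compared with itself, the median match was 50.4% at a lag of 171 bp and 45.2% at 340 bp, against 26.1% at the median lag. The median width of these members was 171 bp as well. A repeat unit of this length is that of alpha satellite, the tandem DNA of human centromeres, although no repeat annotation was used here. The family held the CENP-B box (TTCG, 4 bases of any kind, A, 2 of any kind and CGGG, searched on both strands in the central 150 bp), the site of the centromere protein CENP-B, in 219 of 693 members (31.6%, 28.2 to 35.2). The box was present in 0.624% of all 150 bp windows of hg38 and in 2 of the other 972 members. It was not particular to the members, since 787 of the 4338 removed peaks (18.1%) held it, compared with 13.3% of all members.

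**Figure D3:**
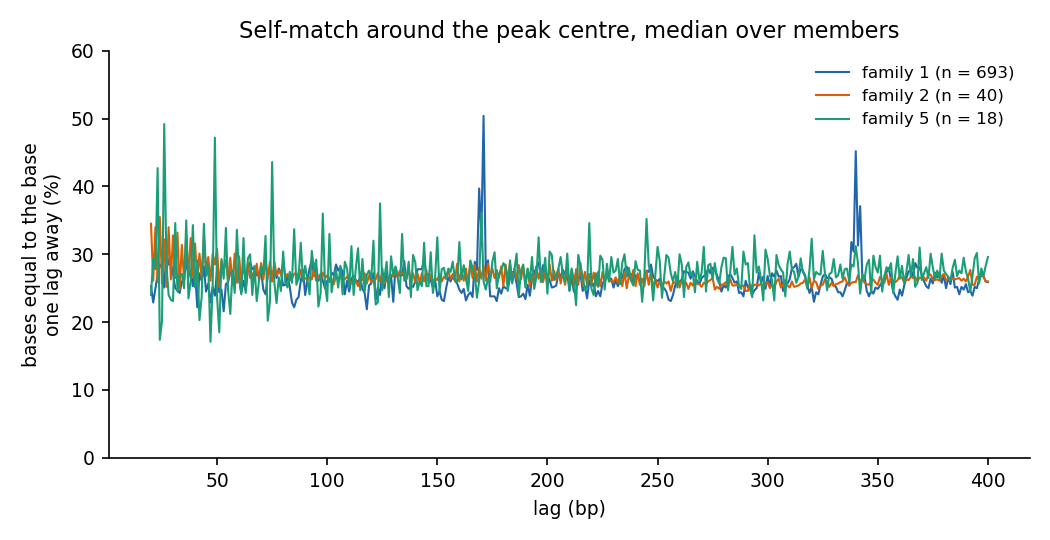
Median percentage of bases equal to the base 1 lag away (vertical axis) for lags of 20 to 400 bp (horizontal axis) within 1000 bp of the member centres, for families 1, 2 and 5. Family 1 peaks at 171 bp (50.4%) and 340 bp (45.2%), and family 5 at 26 bp (49.2%) with weaker peaks at 49 and 75 bp.

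Members of this family were found on 29 sequences, with 114 on chromosome 7, 76 on chromosome 1 and 70 on chromosome 19. All 687 on annotated chromosomes were intergenic, and none was within 2 kb of a start site. The removed peaks held the same repeat at a higher share. At least 1 24-mer of the family occurred in 2355 of the 4338 removed peaks (54.3%, 52.8 to 55.8) and in 2735 of the 4804 H3K27me3 KD peaks (56.9%, 55.5 to 58.3). Among the runs with the most neighbouring members, 2 lay in such arrays, with 18 members within chr19:26666510-27020755, interspersed with 33 removed peaks, and with 17 members within chr7:58544526-58839567, interspersed with 35.

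The other repeated members (347) were of several kinds. The 40 members of family 2 had a GC content of 56.4%. On chromosome 21 there were 18 of them, all within 50 kb of a gene for 5.8S ribosomal RNA (RNA5-8SN1 to RNA5-8SN3), and others lay on unplaced sequences. H3K27me3 KD peaks overlapped 25 of the 40 (62.5%), near the 61.7% of all H3K27me3 CT peaks. A run of 27 members within chr21:8387984-8471382 lay in the same region. CTCF OE peaks overlapped 25 of its 27 members, compared with 33.3% of all members and 68.9% of all H3K27me3 CT peaks. The run was picked for its number of members. Families 3 and 4 (19 members each) were spread over 10 and 12 sequences. H3K27me3 KD peaks overlapped 5 (26.3%) and 2 (10.5%) of their members, compared with 23.7% of all members and 61.7% of all H3K27me3 CT peaks. The strongest self-match of these families was 30.6% and 29.1%, so no tandem unit was seen at these lags. The 18 members of family 5 matched themselves at 26 bp (49.2%). A pair of adjacent GGAAT units, the repeat of another known human satellite, was found in 8 of the 18 and in 0.138% of windows of hg38. This pair was also found in 2.4% of the removed peaks, compared with 0.781% of all members. H3K27me3 KD peaks overlapped 11 of the 18 members of family 5 (61.1%), again near the 61.7% of all H3K27me3 CT peaks.

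The run with the second most members held 29 of them within chr8:85724079-85828095, an array of REXO1L pseudogenes. Here 16 of the 29 members overlapped H3K27me3 KD, 18 H3K4me3 CT and 21 H3K4me3 KD, and 22 removed peaks lay between them. The shares over all H3K27me3 CT peaks were 61.7%, 69.1% and 65%. The 973 bp member of this run was among the 8 widest. The run with the most members was that of ATM, with 45 members within chr11:108227601-108365530 and 1 removed peak. That of BRCA2 held 19 members within chr13:32316359-32398783 and no removed peak. In the BRCA2 run 16 members overlapped H3K4me3 CT, 1 overlapped H3K4me3 KD and 0 overlapped H3K27me3 KD.

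An H3K27me3 KD peak overlapped 394 of the 1665 members (23.7%, 21.6 to 25.8), compared with 61.7% of all H3K27me3 CT peaks and 76.3% of the removed peaks (75 to 77.5). The share depended on the class. It was 32.9% (29.4 to 36.5) in the 171 bp family and 34.9% (29.9 to 40.1) in other repeats, but 10.1% (7.13 to 13.9) in the other class and 3.79% (1.91 to 6.69) on coding exons. Without the coding exon members it was 27.9% (25.5 to 30.3). Among the 242 unrepeated members outside coding exons it was 5.37% (2.89 to 9.01). Within 10 kb of the centre, an H3K27me3 KD peak lay near 78.1% of the 171 bp family and 6.55% of the coding exon members, compared with 76.3% of all H3K27me3 CT peaks. Of the 394 members with an H3K27me3 KD peak, 355 had at least 0.5 of their bases repeated.

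**Figure D4:**
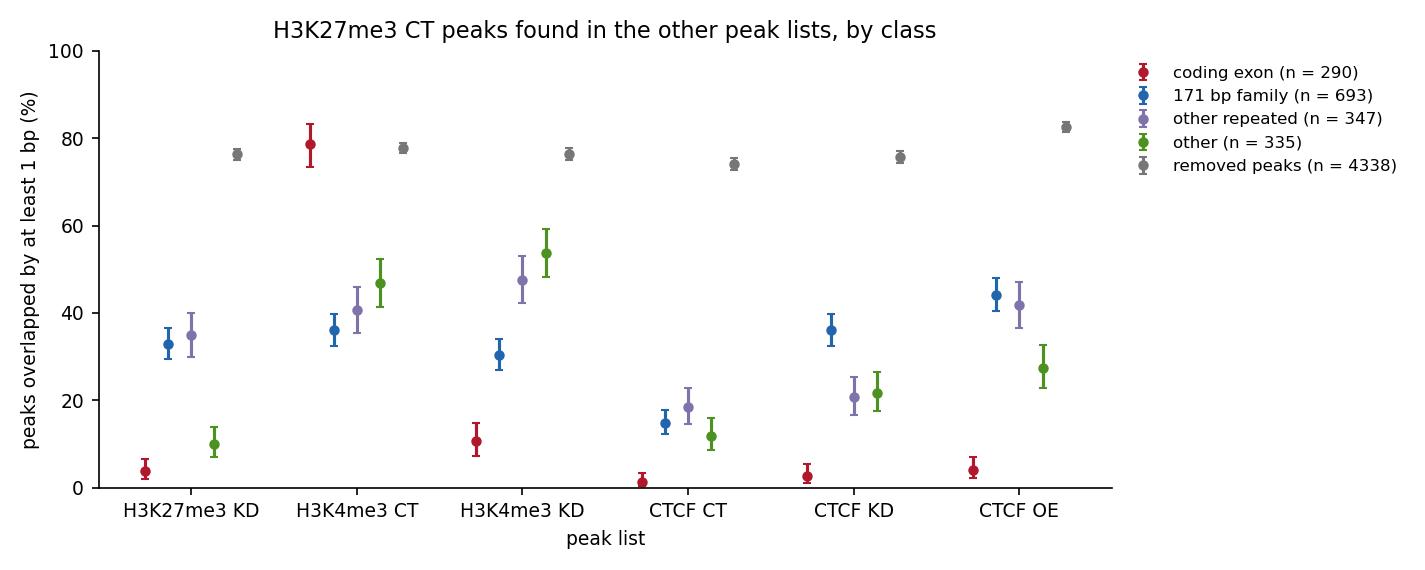
Percentage of peaks overlapped by at least 1 bp (vertical axis) in 6 other peak lists (horizontal axis), for the 4 classes of members and for the removed peaks, with exact 95% intervals that cover counting error only. The coding exon members reach 78.6% in H3K4me3 CT and at most 10.7% in the other 5 lists, and every class lies below the removed peaks except coding exons in H3K4me3 CT.

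H3K4me3 CT peaks overlapped 776 members (46.6%, 44.2 to 49), compared with 69.1% of all H3K27me3 CT peaks, and H3K4me3 KD peaks 587 (35.3%, 33 to 37.6), compared with 65%. On coding exons the counts were 228 of 290 (78.6%, 73.4 to 83.2) in CT and 31 (10.7%, 7.38 to 14.8) in KD. Off coding exons the totals were close, with 548 of 1375 members (39.9%, 37.3 to 42.5) in CT and 556 (40.4%, 37.8 to 43.1) in KD. The members differed more, with 406 in both lists, 142 in CT only and 150 in KD only. Of the 341 members with H3K4me3 in CT only (20.5%, compared with 11.9% of all H3K27me3 CT peaks), 199 were on coding exons. In the 171 bp family 36.1% (32.5 to 39.8) overlapped H3K4me3 in CT and 30.4% (27 to 34) in KD, with 106 members in CT only and 67 in KD only. Other repeats had 40.6% (35.4 to 46) and 47.6% (42.2 to 53), with 22 in CT only and 46 in KD only. In the other class it was 46.9% (41.4 to 52.4) and 53.7% (48.2 to 59.2), with 143 of 335 members in both conditions, 14 in CT only and 37 in KD only. Within 10 kb of the centre, an H3K4me3 CT peak was near 80.6% of the members (78.6 to 82.5), compared with 86.5% of all H3K27me3 CT peaks.

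The other class, 335 members with little repeated sequence outside coding exons, lay close to start sites more often than the other noncoding classes. On annotated chromosomes 126 of 308 (40.9%, 35.4 to 46.6) were within 2 kb of a start site. The shares were 18.2% (13.7 to 23.4) in other repeats and 0 in the 171 bp family. Of the 126, 78 (61.9%, 52.8 to 70.4) overlapped H3K4me3 in both conditions, while 54 of the 182 farther away did (29.7%, 23.1 to 36.9). They were in introns in 126 cases and intergenic in 129. H3K4me3 peaks covered 27.5% of the bases within 500 bp of their centres in CT and 30.2% in KD, and 4.80% and 5.11% at 5 to 10 kb. On coding exons the central coverage was 29.9% in CT and 7.22% in KD.

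**Figure D5:**
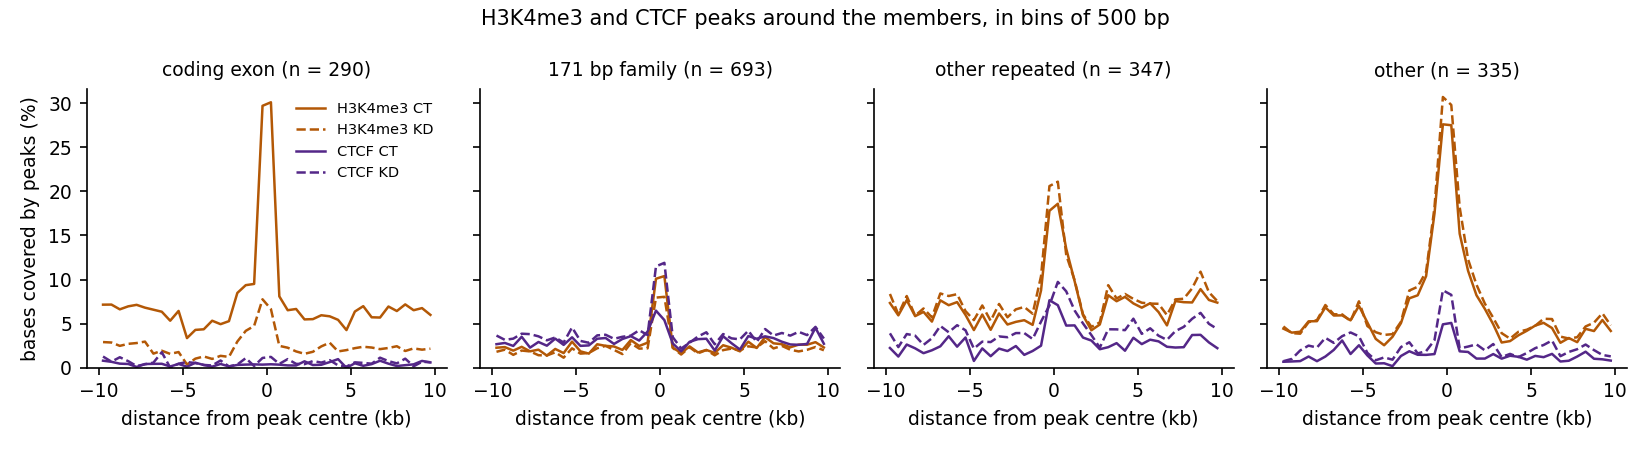
Percentage of bases covered by H3K4me3 peaks and CTCF peaks (vertical axis, bins of 500 bp) by distance from the member centre (horizontal axis, kb), 1 panel per class. Solid lines are CT and dashed lines KD. H3K4me3 rises at the centre in both conditions in the 3 classes off coding exons and mainly in CT on coding exons (29.9% against 7.22% within 500 bp).

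CTCF peaks overlapped 211 members in CT (12.7%, 11.1 to 14.4), 403 in KD (24.2%, 22.2 to 26.3) and 555 in OE (33.3%, 31.1 to 35.7). Among all H3K27me3 CT peaks the shares were 57.1%, 61.5% and 68.9%. Without the coding exon members they were 15.1% (13.2 to 17.1), 28.7% (26.3 to 31.2) and 39.5% (36.9 to 42.1). The threshold on p for calling peaks was 0.0025 in CT and KD and 0.005 in OE, and its part in the higher OE share was not tested. The shares ran in the order CT, KD, OE in all 4 classes, although not every step was larger than the counting error. In the 171 bp family the shares were 14.9% (12.3 to 17.7), 36.1% (32.5 to 39.8) and 44.2% (40.4 to 47.9), and on coding exons 1.38%, 2.76% and 4.14%, where the intervals overlap. Other repeats had 18.4% (14.5 to 22.9), 20.7% (16.6 to 25.4) and 41.8% (36.5 to 47.2), so that CT and KD overlap. The other class had 11.9% (8.67 to 15.9), 21.8% (17.5 to 26.6) and 27.5% (22.8 to 32.6), where KD and OE overlap. Without the coding exon members a CTCF CT peak was near (10 kb) 73.5% of the members, and with them near 64.6% (62.2 to 66.9), compared with 85% of all H3K27me3 CT peaks. A total of 98 members (5.89%) overlapped CTCF in all 3 lists and 931 (55.9%) in none, compared with 42.6% and 19.6% of all H3K27me3 CT peaks.

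The core of the CTCF motif (CCA, 2 bases of any kind, AG, 2 of any kind and GGC, both strands) was rare. It occurred in the central 150 bp of 12 members (0.721%, 0.373 to 1.26) and in 0.366% of windows of hg38. None of the 103 members of the 171 bp family with a CTCF CT peak held it (interval 0 to 3.52%), and 2 of the 40 in the other class with a CTCF CT peak did. Only the centre of the member was searched, and not the CTCF peak, which may overlap it by 1 bp. The counts therefore do not show whether those CTCF peaks hold the motif. A run of 3 CGG triplets, the kind of sequence that CGGBP1 binds, was found in 1 member and in 0.0548% of windows. A pair of telomere units (TTAGGG) was found in 0 members.

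Peaks of H3K4me3 CT and CTCF CT met on 97 members (5.83%), compared with 46.2% of all H3K27me3 CT peaks. The widest of these on a chromosome was a 578 bp member at chr21:8470805-8471382, 42.2% repeated, which overlapped every one of the 6 other lists. Next was a 479 bp member on a CHEK2 coding exon at chr22:28724908-28725386, which overlapped only H3K4me3 CT and CTCF CT. Another, 387 bp at chr7:70829132-70829518, was intergenic, 42404 bp from the start site of AUTS2, and overlapped H3K4me3 and CTCF in every condition but not H3K27me3 KD. The widest overall was 704 bp on an alternate sequence of chromosome 19.

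A total of 396 members (155 of the 171 bp family, 81 other repeats, 103 of the other class and 57 on coding exons) overlapped none of the 6 other lists. This was 23.8% of the members (21.8 to 25.9), compared with 8.26% of all H3K27me3 CT peaks. Their lack of H3K9me3 and input peaks was set by the rule. At the edge of the rule, the closest members lay 3, 6 and 10 bp from an H3K9me3 or input peak, and the smallest overlap of a removed peak was 3 bp. Within 10 kb of such a peak lay 910 members.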

How the data were processed

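ChIP-seq peaks of 10 libraries were used, 1 per mark and condition. According to the study's methods and the labels, single-end reads were mapped by the authors to hg38 (Bowtie2) and peaks were called library by library (MACS2). The values in the deposited lists are genome positions in bp (column unit: other), with no scores. Of 19 deposited lists, the 10 of unmasked reads were read, and 9 (repeat-masked and exclusive CTCF lists) were not used here. Groups were taken from the sample labels. Starts were read as counted from 0 and are printed counted from 1.

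Overlap meant at least 1 bp. Genes came from GENCODE release 44, and coding exons of a gene were merged over its transcripts. Repeated bases were found by counting 24-mers in hg38 (455 sequences), in place of a repeat annotation. Members that share a 24-mer were joined into families. Python 3, numpy and scipy were used, and the 24-mer counting, overlap, family and motif computations were tested on simulated data. The members, classes and gene lists were chosen with earlier results of these data known. Members described singly were the 8 widest, those nearest a start site of a listed gene, the 4 runs with the most members (gaps up to 50 kb), 1 per large family, and the widest with H3K4me3 and CTCF. The gene groups on coding exons were chosen after their values were seen, and some genes and sequences are not reported here. Alternatives changed the rule, the widths, the distances and the repeat minimum.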

Additional observations from a re-analysis of the deposited data

How the results depend on the processing

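Each share rests on 1 library per mark and condition, so the spread between cultures is unknown, and the depth behind a peak is not given in the lists. Repeats were measured by 24-mer counts, which miss old diverged copies, and reads from near-identical repeats may have been placed at any copy. No paired analysis was possible because each group has 1 library and no replicate numbers. Of 87 alternative values, 37 stayed within the counting interval (for counts, within 1.5 times) and 50 moved. Restricting to chromosomes 1 to 22, X and Y, removing peaks only when at least 0.5 was covered, or counting starts from 1 moved none. The number of Polycomb target genes stayed at 3 or 4 throughout.

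In the following sets, the values are given in 1 order: overlap with H3K27me3 KD, gene overlap, start site within 2 kb, repeated bases, H3K4me3 CT within 10 kb, CTCF CT within 10 kb. The 755 members at least 10 kb from H3K9me3 and input peaks gave 8.61%, 59.7%, 31.5%, 30.8%, 72.2% and 38.5%. The 622 members at least 200 bp wide gave, after an H3K27me3 KD share that stayed within the interval, 55.7%, 30.2%, 42.1%, 86.7% and 56.1%, and the widest 832 gave 49.3%, 26.5%, 47.0%, 86.5% and 60.5%. Further sets were chosen after seeing the data. Without coding exon members the values were 27.9%, 23.3%, 13.8%, 72.8%, 76.9% and 73.5%, and for the 972 members outside the 171 bp family 17.1%, 67.6%, 36.1%, 33.3%, 84.5% and 50.7%. The 509 members without a repeated 24-mer gave 3.34%, 82.0%, 45.8%, 0%, 88.6% and 33.6%.

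Removing only input peaks left 3757 members. An H3K27me3 KD peak within 1 kb was found for 30.9%. Protein-coding genes alone gave 28% for gene overlap and 14.2% for start sites, and a distance of 10 kb to a start site gave 37.8%. Repeated bases were 41.3% with a minimum of 100 occurrences and 66.8% with 3. Direct overlap gave 46.6% for H3K4me3 CT and 12.7% for CTCF CT, and 50 kb gave 94.7% and 90.2%.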

Other observations

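Peaks on coding exons of the muscle genes were also seen in lists other than H3K27me3 CT. H3K4me3 CT peaks without an H3K4me3 KD peak lay on 19 of 67 coding exons of LAMA2, 14 of 44 of COL6A3, 11 of 30 of CAPN3 and 5 of 91 of DMD (dystrophin). H3K9me3 CT peaks lay on 6 coding exons of DMD. The full H3K27me3 CT list, before the rule, reached 9 coding exons of COL6A3, 8 of CAPN3 and 7 of LAMA2.

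Chromosome 17, which carries BRCA1, BRIP1, RAD51C and ERBB2, had the highest share of members among its H3K27me3 CT peaks, with 74 of 132 (56.1%), and 53 of the 74 lay on coding exons. On chromosomes 1 to 16, 18 to 22 and X the share ranged from 13% on chromosome 3 to 40.4% on chromosome 22.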
